A study of Mus musculus with 66 samples.

Results

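The comparison described here covers the last part of recovery of mouse muscle from a toxin injury, and sets days 30 and 40 after injection against days 16 and 20. Its 8 arrays were taken by the time point in their labels from the 54 arrays of the later version (Av2) of the Affymetrix murine array and the 66 arrays of the whole series. The study followed mouse skeletal muscle (gas in the labels, spelled out as gastrocnemius on other arrays of the series) after injection of cardiotoxin (ctx in the labels), with 2 Av2 arrays at each time point. The groups were 16 d and 20 d (4 arrays) and 30 d and 40 d (4 arrays), all of cardiotoxin-injected muscle. No control array entered the comparison. The 2 Av2 arrays of untreated gastrocnemius from 8-week-old mice are quoted for orientation only.

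The labels of the 8 arrays give the toxin and the day, but not the dose, the strain, the genotype, the sex, the age or the hour of collection. Whether the pair of arrays at a time point came from separate animals is not stated either. The p-values below measure the spread within time points, pooled over the 26 time points after injection except where stated. That spread may therefore be technical. At some other time points the title codes of both arrays share a number and differ in a letter, L or R. At each time point compared here the numbers differ. What the number and letter stand for is not stated. Whether arrays that share a number vary less than others was not tested. The title codes of 16 d replicate 2, 20 d replicate 2 and 40 d replicate 1 carry an added character whose meaning is not stated. Each value is an intensity, the brightness of a probe set (a group of short oligonucleotides for 1 transcript) on a linear scale, as deposited. In whole-muscle RNA, fewer cells of a type and less RNA per cell cannot be told apart.

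Cardiotoxins are snake venom peptides that lyse muscle fibres and spare the basement membrane and most satellite cells, the stem cells of muscle. Satellite cells then divide and fuse into new fibres, which first use embryonic and neonatal forms of the sarcomeric proteins and later replace them with adult forms. Fibroblasts and related stromal cells lay down collagens, basement membrane proteins and matricellular proteins while the fibres grow, and this matrix is then remodelled.

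The promoters of a pair of keratin genes, of 1 collagen gene and of the embryonic myosin gene, which are described below and have a single entry each in the table of promoters, read as follows over the 250 bases before the start given there (RefSeq, GRCm38.p6, 5′ to 3′ on the strand of the gene, with TATAAA or its reverse complement in capitals). Krt8 lies on the minus strand at chr15:102004343-102004592, Krt18 on the plus strand at chr15:102027966-102028215, Col3a1 on the plus strand at chr1:45311288-45311537 and Myh3 on the plus strand at chr11:67078050-67078299. The RefSeq gene record of Myh3 begins at 67078273, inside that window, so the end of the Myh3 sequence overlaps the annotated gene.
Krt8: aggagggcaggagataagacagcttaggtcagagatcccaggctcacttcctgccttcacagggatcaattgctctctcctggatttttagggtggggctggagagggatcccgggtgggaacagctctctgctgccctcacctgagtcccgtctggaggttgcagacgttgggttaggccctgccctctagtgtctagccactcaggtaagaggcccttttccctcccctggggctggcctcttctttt
Krt18: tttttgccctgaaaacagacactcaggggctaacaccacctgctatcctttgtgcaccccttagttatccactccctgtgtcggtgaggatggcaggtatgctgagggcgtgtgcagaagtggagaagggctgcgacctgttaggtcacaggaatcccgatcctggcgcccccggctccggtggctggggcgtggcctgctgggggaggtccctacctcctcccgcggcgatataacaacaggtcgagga
Col3a1: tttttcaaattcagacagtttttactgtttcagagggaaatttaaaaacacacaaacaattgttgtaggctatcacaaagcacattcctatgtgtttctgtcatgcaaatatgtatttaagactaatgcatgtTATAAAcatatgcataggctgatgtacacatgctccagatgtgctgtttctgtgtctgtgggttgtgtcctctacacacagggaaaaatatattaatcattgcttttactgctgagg
Myh3: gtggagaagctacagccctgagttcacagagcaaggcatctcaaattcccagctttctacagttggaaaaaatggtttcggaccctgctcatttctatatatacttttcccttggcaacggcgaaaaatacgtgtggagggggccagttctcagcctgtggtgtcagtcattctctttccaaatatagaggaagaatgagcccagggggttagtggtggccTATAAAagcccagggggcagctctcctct
The letters TATAAA were found once in the Myh3 window, starting 29 bases before the start, and once in the Col3a1 window, starting 117 bases before it. Neither keratin window held them. Both distances are from the start given in the table of promoters, and the Myh3 match overlaps the beginning of the RefSeq gene record. Neither CCAAT nor GGGCGG was found in any of the 4 windows on either strand. Over all 32851 RefSeq promoter windows of this length, 12.4% held TATAAA, 33.8% held CCAAT and 32.7% held GGGCGG on either strand. A match of letters describes the window and is no evidence of a binding site.

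Between 16-20 d and 30-40 d, few probe sets passed the test. Of 11072 probe sets tested, 131 (1.18%) passed an adjusted p of 0.05. Of these, 46 were higher at 30-40 d (0.415% of those tested) and 85 were lower (0.768%). Counted by gene, with the brightest probe set standing for each of 7674 genes, 93 were called (1.21%), of which 28 rose (0.365%) and 65 fell (0.847%). Of the 7674 log2 differences, 4044 were below 0. Counts for the gene lists below are to be read against these shares. Among the genes that fell were those of a pair of simple keratins (Krt8 and Krt18), of matrix proteins (Postn, Col4a1, Col5a2, Nid2), of developmental sarcomeric proteins (Myh3, Myl4, Tnnt2) and of the fetal growth factor Igf2. The genes that rose included Fkbp5, Gadd45g, Musk, Cyp2f2, Inmt and Cebpb. The largest called fall of a gene was -1.88 on the log2 scale (Krt8), and limma's test for a change of more than 2-fold called 0 probe sets (13 at an unadjusted p under 0.05).

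**Figure D1:**
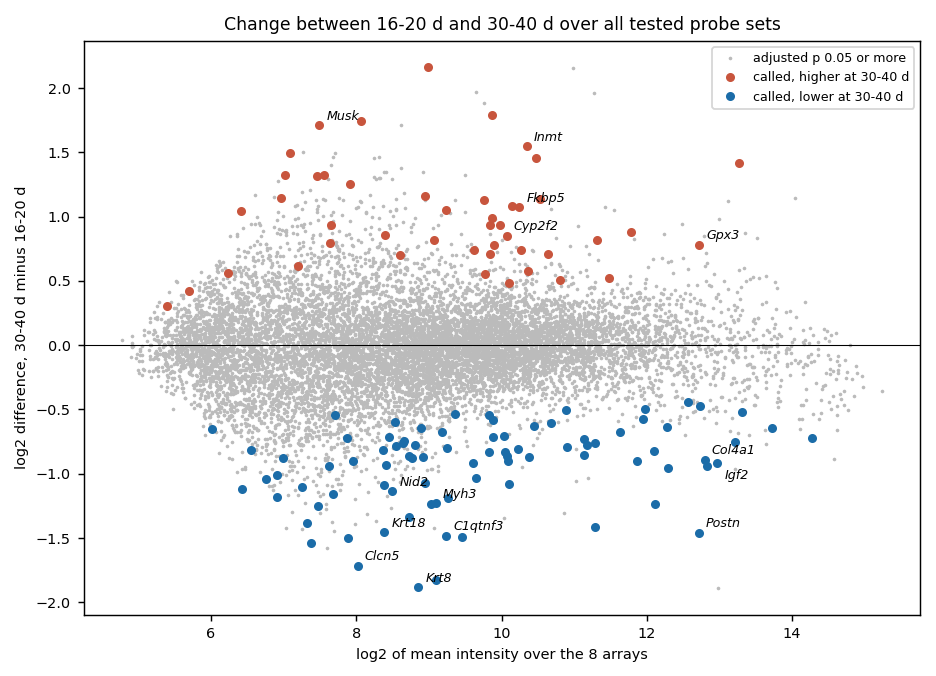
Each point is 1 of the 11072 probe sets tested, with the log2 of its mean intensity over the 8 arrays on the x axis and its log2 difference, 30-40 d minus 16-20 d, on the y axis. The 46 probe sets called higher and the 85 called lower spread over the whole range of intensity, and Krt8 and Clcn5 are the lowest of the labelled points.

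The test was limma's moderated test on log2 intensities with a floor of 64.7, with the spread estimated from the 2 arrays at each of the 26 time points after injection. The calls rest on that pooled spread: fitted on the 8 arrays alone, the same contrast called 2 probe sets, of Clcn5 (lower) and Inmt (higher). The count was 60 without 16 d replicate 2, 47 without 30 d replicate 1, 73 without 30 d replicate 2, 232 without 40 d replicate 1 and 67 without 40 d replicate 2. It was 21 for 30 d alone and 237 for 40 d alone against 16 and 20 d. A separation of all 4 later from all 4 earlier arrays, with no test, was seen for 307 probe sets that were higher (2.77%) and 376 that were lower (3.40%), and by gene for 243 (3.17%) and 274 (3.57%). Of the called probe sets, 30 of the 46 higher and 65 of the 85 lower separated in this way. The largest rises and falls named below were taken only from genes that separated, so their lack of overlap was set by that choice.

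The 8 arrays were alike in scale, with median intensities of 315 to 342 and with 78.5% to 82.4% of probe sets above the floor. Log2 values correlated at 0.939 to 0.969 within a time point and at 0.926 to 0.962 between the 2 windows. The Gapdh control probe sets gave a 3′ to 5′ ratio of 0.0702 to 0.700 at 16-20 d and of 0.0653 to 0.314 at 30-40 d, against 0.373 and 0.451 on the untreated arrays, and the ratio was below 0.2 on 5 of the 8 arrays (16 d replicate 1, 20 d replicate 2, both 30 d arrays and 40 d replicate 1). The beta-actin ratio was 0.902 to 1.11. Without those 5 arrays the later window would hold 40 d replicate 2 alone and no 30 d array, so the part of RNA or hybridisation quality in the calls was not tested.

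All 7 fibre markers were measured, and Acta1 (skeletal alpha-actin) ranged from 979 to 30178 across the 8 arrays. Acta1 was low on 16 d replicate 1, 20 d replicate 2, 30 d replicate 2 and 40 d replicate 1, which are 2 arrays of each window. These arrays are all among those with a Gapdh ratio below 0.2. Pvalb, another fibre marker, ranged from 0.0636 on 16 d replicate 1 to 29283 on 20 d replicate 1. The cause of these swings was not tested. Of 41 markers of 13 cell types tested, none was called (lowest adjusted p = 0.253, C1qa). The summed intensity of 37 macrophage genes was 37072 to 46949.6 at 16-20 d and 29104 to 42238 at 30-40 d, against 16086 to 21934 in untreated muscle.

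Both simple keratins fell, and Krt8 had the largest called fall of any gene. Krt8 encodes keratin 8 and Krt18 its partner keratin 18, which pair into the intermediate filaments of simple epithelia, and keratin 8 is also known from the costameres of mouse striated muscle. The intensity of Krt8 was 538 and 650.0 on the 16 d arrays, 922 and 786 on the 20 d arrays, 219.9 and 265 on the 30 d arrays and 205 and 114 on the 40 d arrays. All 4 later arrays lay below all 4 earlier ones, and the untreated arrays (61.7 and 102) were lower still. Krt8 fell from 724 ± 167 to 201 ± 63.3 (mean and SD, n = 4 each) (log2 difference -1.88, SE 0.34, limma adjusted p = 0.00234). Krt18 read 356 and 431 on the 16 d arrays, 622 and 543 on the 20 d arrays, 144 and 156 on the 30 d arrays and 251 and 164 on the 40 d arrays. Its windows did not overlap either, and it fell from 488 ± 118 to 179 ± 48.8 (mean and SD, n = 4 each) (log2 difference -1.45, SE 0.29, limma adjusted p = 0.00867). The call of Krt18 was lost without 40 d replicate 2 (adjusted p 0.0641), while Krt8 was called in each of the 8 fits that left out 1 array. Against 16 d alone neither was called (adjusted p = 0.0506 for Krt8 and 0.136 for Krt18). Krt8 was not called for 30 d alone against 16 and 20 d (adjusted p = 0.134), nor Krt18 for 40 d alone (adjusted p = 0.0656).

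The other genes of both lists that hold the 2 keratins did not pass. Of 12 skin and keratin genes tested, Krt8 and Krt18 were the only 2 called (16.67%, against 1.21% of all genes). The median log2 difference of the list was -0.05, against -0.02 over all genes tested. The epidermal keratins were near the floor or did not pass: Krt14 was above the floor on 2 of the 8 arrays and Krt5 on 3, and Krt10 and Krt1 had adjusted p of 0.754 and 0.691. Of 20 genes of the dystrophin complex and costamere, the same 2 were called (10%), and the median was -0.09. Over the whole course Krt8 was highest at 8.5 d (944 ± 32.4, mean and SD, n = 2) and still read 854 ± 96.2 at 20 d, then 242 ± 31.9 at 30 d. Krt18 was highest at 10 d (719 ± 145).

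**Figure D2:**
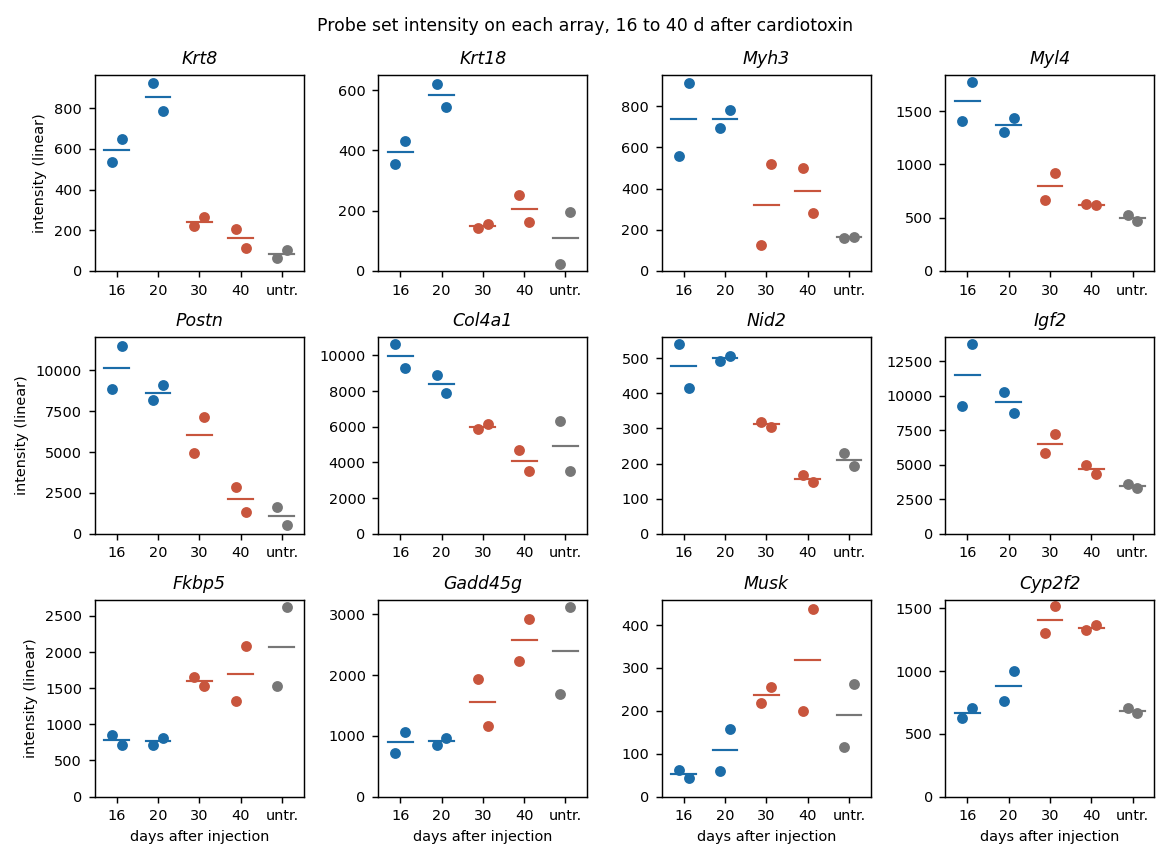
Each panel shows 1 gene, with the intensity of its brightest probe set on each array on the y axis and the time point on the x axis; dots are single arrays (blue 16 and 20 d, red 30 and 40 d, grey untreated) and bars are means of 2. In the 8 panels of genes that fell every red dot lies below every blue dot, and in the 4 panels of genes that rose (Fkbp5, Gadd45g, Musk and Cyp2f2) every red dot lies above.

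Among the genes of extracellular matrix, several of basement membrane and of collagens fell. Of 27 collagen and basement membrane genes tested, 7 fell and 0 rose (25.93% called, against 1.21% of all genes). Of the 27 log2 differences, 25 were below 0, against 4044 of all 7674 genes. The median was -0.47 against -0.02 over all genes tested. The genes that fell were Nid2, Col5a2, Col4a1, Col6a3, Nid1, Col1a2 and Col5a1. The mean log2 intensity of the list was 11.4 to 11.5 on the 4 earlier arrays, 11.2 on both 30 d arrays, 10.9 on 40 d replicate 1 and 10.4 on 40 d replicate 2. The number that fell was 4 without 16 d replicate 2, 20 d replicate 1, 30 d replicate 1, 30 d replicate 2 or 40 d replicate 2, and 11 without 40 d replicate 1. For 30 d alone against 16 and 20 d it was 0, and for 40 d alone 12.

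Col4a1 encodes the alpha 1 chain of collagen IV, the network collagen of basement membranes. Its intensity was 10659 and 9273 on the 16 d arrays, 8916 and 7885 on the 20 d arrays, 5869 and 6132 on the 30 d arrays and 4672 and 3508 on the 40 d arrays. The later arrays were all below the earlier ones, with 40 d lowest, and the fall was from 9183 ± 1147 to 5045 ± 1206 (mean and SD, n = 4 each) (log2 difference -0.89, SE 0.12, limma adjusted p = 5.07e-05). Nid2, which encodes the basement membrane linker nidogen 2, read 540.0 and 415 on the 16 d arrays, 493 and 506 on the 20 d arrays, 319.7 and 304 on the 30 d arrays and 166 and 148 on the 40 d arrays. It fell without overlap (log2 difference -1.14, SE 0.19, limma adjusted p = 0.00125). For 30 d alone against 16 and 20 d, Col4a1 and Nid2 were not called (limma adjusted p = 0.0771 and 0.38). On the untreated arrays Col4a1 read 6332 and 3495 and Nid2 229.7 and 193. The 40 d arrays lay inside the untreated range for Col4a1 and below it for Nid2.

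Col6a3, of the microfibrillar collagen VI that surrounds fibres, read 13798 and 13521 on the 16 d arrays, 10162 and 9828 on the 20 d arrays, 8803 and 9682 on the 30 d arrays and 5949.8 and 4509 on the 40 d arrays. The windows did not overlap (log2 difference -0.76, SE 0.11, limma adjusted p = 0.000301). Col5a2, of the fibril-regulating collagen V, read 11178 and 9598 on the 16 d arrays, 7633 and 8325 on the 20 d arrays, 6590.0 and 8016 on the 30 d arrays and 4607 and 2051 on the 40 d arrays. Here 30 d replicate 2 lay above 20 d replicate 1, so the windows overlapped, and the fall was clearest at 40 d (log2 difference -0.94, SE 0.16, limma adjusted p = 0.000996). Neither Col6a3 nor Col5a2 was called for 30 d alone against 16 and 20 d (limma adjusted p = 0.464 and 0.701). Col1a2 (log2 difference -0.72, SE 0.17, limma adjusted p = 0.0294), Nid1 (log2 difference -0.75, SE 0.19, limma adjusted p = 0.0436) and Col5a1 (log2 difference -0.50, SE 0.12, limma adjusted p = 0.0391) fell with overlapping windows.

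The calls for fibrillar collagens depended on the probe set. Col3a1, of collagen III, has 3 probe sets. The brightest read 14424 and 16679 on the 16 d arrays, 14146 and 18197 on the 20 d arrays, 10852 and 12892 on the 30 d arrays and 10133 and 5207 on the 40 d arrays, with the windows apart but no call (log2 difference -0.77, SE 0.21, limma adjusted p = 0.0627). A second read 4535 and 3759 on the 16 d arrays, 2603 and 3093 on the 20 d arrays, 1952 and 2408 on the 30 d arrays and 1109 and 527 on the 40 d arrays and fell (log2 difference -1.41, SE 0.18, limma adjusted p = 4.25e-05), and the third did not pass (log2 difference -0.81, SE 0.22, limma adjusted p = 0.0602). The 3 agreed in sign and differed in whether they passed. Col1a1 (log2 difference -0.44, SE 0.24, limma adjusted p = 0.474) and Sparc, which encodes a collagen-binding matricellular protein (log2 difference -0.66, SE 0.19, limma adjusted p = 0.0884), did not pass either.

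Of 22 matricellular and matrix assembly genes tested, 2 fell and 0 rose (9.091% called, against 1.21% of all genes), with a median of -0.15. The number that fell was 1 without 16 d replicate 2, 20 d replicate 2, either 30 d array or 40 d replicate 2. It was 5 without 40 d replicate 1. For 30 d alone against 16 and 20 d it was 0, and for 40 d alone 5. Postn encodes periostin, a matricellular protein of healing connective tissue, and read 8834 and 11470.4 on the 16 d arrays, 8167 and 9109.7 on the 20 d arrays, 4929 and 7115 on the 30 d arrays and 2886 and 1304 on the 40 d arrays. Every later array was below every earlier one, and 40 d was below 30 d. Postn fell from 9395 ± 1439 to 4059 ± 2521 (mean and SD, n = 4 each) (log2 difference -1.46, SE 0.22, limma adjusted p = 0.000301). Postn was not called for 30 d alone against 16 and 20 d (limma adjusted p = 0.466). It had been highest at 5.5 d (36201 ± 772, n = 2), and the untreated arrays read 1654 and 558. Serpinh1, which encodes the collagen chaperone Hsp47, read 4399, 6019, 3966 and 4549 at 16 and 20 d and 3547, 3786, 2942 and 2488 at 30 and 40 d and fell (log2 difference -0.57, SE 0.13, limma adjusted p = 0.0236). The call of Serpinh1 was kept only without 16 d replicate 1, 20 d replicate 1 or 40 d replicate 1 (adjusted p 0.055 to 0.171 when any of the others was left out).

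Among 7 small leucine-rich proteoglycans, which bind collagen fibrils, Lum (lumican) was the 1 that fell (log2 difference -0.63, SE 0.16, limma adjusted p = 0.0423). It read 5848, 5526, 6217 and 5884 at 16 and 20 d and 4531, 6019, 3661 and 2045 at 30 and 40 d, so the windows overlapped. Against 16 and 20 d its log2 difference was -0.167 for 30 d alone (limma adjusted p = 0.897) and -1.099 for 40 d alone (limma adjusted p = 0.0013). The call of Lum was kept only without 30 d replicate 2 or 40 d replicate 1 (adjusted p 0.0786 to 0.303 when any of the others was left out). C1qtnf3, which encodes a secreted protein related to C1q and tumour necrosis factor, read 837 and 962 on the 16 d arrays, 752 and 900.0 on the 20 d arrays, 379 and 590.3 on the 30 d arrays and 265 and 150.1 on the 40 d arrays. It fell without overlap (log2 difference -1.48, SE 0.22, limma adjusted p = 0.000301), from a course maximum of 5270 ± 1553 at 5.5 d. C1qtnf3 was not called for 30 d alone against 16 and 20 d (limma adjusted p = 0.265). Tfpi2, of a matrix-associated protease inhibitor, read 282, 240.1, 285 and 126 at 16 and 20 d and 81.2, 78.2, 122 and 68.0 at 30 and 40 d. The windows were apart (log2 difference -1.38, SE 0.27, limma adjusted p = 0.00642). The call of Tfpi2 was lost without 20 d replicate 1 or 40 d replicate 2 (adjusted p 0.0566 to 0.0677).

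**Figure D3:**
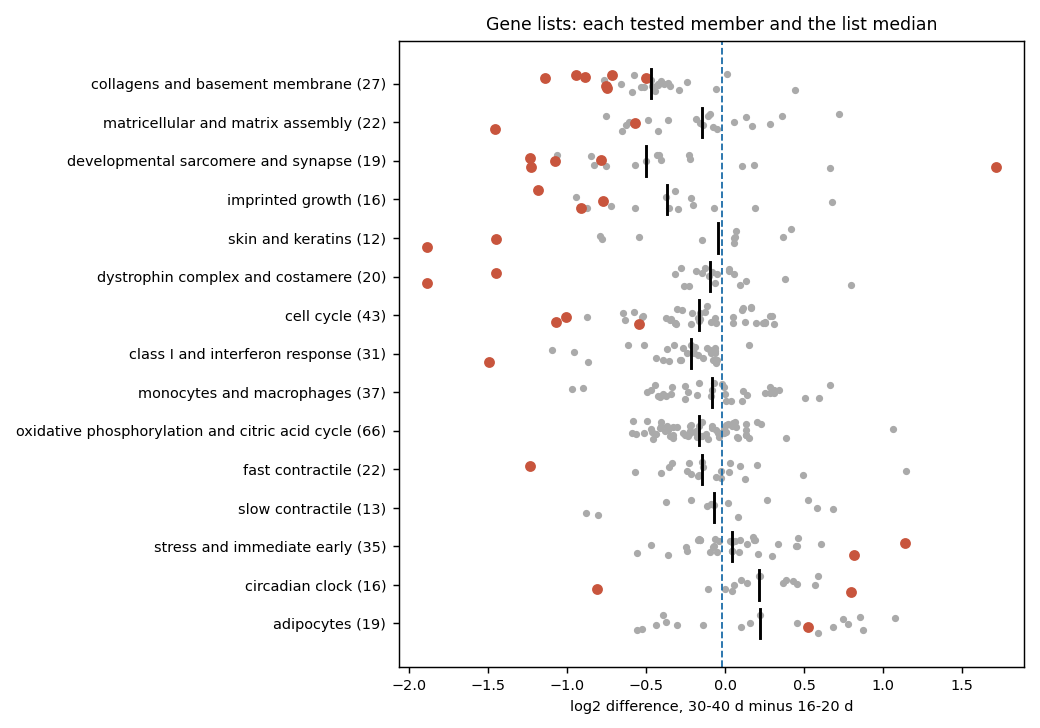
Each point is the log2 difference, 30-40 d minus 16-20 d, of 1 tested gene, arranged by gene list with the number of tested genes in brackets; red points passed an adjusted p of 0.05, black bars are list medians and the dashed line is the median of all genes tested (-0.02). The black bars of the developmental sarcomere and synapse list (-0.50), the collagens and basement membrane list (-0.47) and the imprinted growth list (-0.37) lie farthest to the left.

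Of 19 genes of the developmental sarcomere and the synapse tested, 4 fell (Mybph, Myh3, Myl4 and Tnnt2), 1 rose (Musk), and the median was -0.50. The share called was 26.32%, against 1.21% of all genes. Myh3 encodes embryonic myosin heavy chain. It read 558 and 914 on the 16 d arrays, 694 and 781 on the 20 d arrays, 125 and 517 on the 30 d arrays and 499 and 282 on the 40 d arrays. All later arrays were below all earlier ones, although 30 d replicate 1 and 30 d replicate 2 lay far apart, and Myh3 fell from 737 ± 149.7 to 356 ± 187 (mean and SD, n = 4 each) (log2 difference -1.23, SE 0.28, limma adjusted p = 0.0246). Its course maximum was 9982 ± 2353 at 5.5 d, so most of its decline came before 16 d. Myl4, of an atrial and embryonic myosin light chain, read 1406 and 1778 on the 16 d arrays, 1306 and 1436 on the 20 d arrays, 666 and 923 on the 30 d arrays and 625 and 616 on the 40 d arrays. The windows did not overlap (log2 difference -1.08, SE 0.26, limma adjusted p = 0.0294), but the second probe set of Myl4 did not pass (log2 difference -0.45, SE 0.17, limma adjusted p = 0.233).

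Tnnt2 encodes cardiac troponin T, also made by immature skeletal fibres, and read 441 and 496 on the 16 d arrays, 490.5 and 461 on the 20 d arrays, 234 and 282 on the 30 d arrays and 309.7 and 276 on the 40 d arrays. It fell without overlap (log2 difference -0.78, SE 0.16, limma adjusted p = 0.0103). Mybph, of myosin binding protein H, read 8891 and 6946 on the 16 d arrays, 4499 and 4579 on the 20 d arrays, 4087 and 2310.2 on the 30 d arrays and 2001 and 2203 on the 40 d arrays and fell (log2 difference -1.23, SE 0.31, limma adjusted p = 0.0436). The untreated arrays read 6185 and 3829.6 for Mybph, above the 40 d arrays. Neonatal Myh8 read 519, 494, 408 and 463 at 16 and 20 d and 354, 436, 176 and 221 at 30 and 40 d and did not pass (log2 difference -0.75, SE 0.20, limma adjusted p = 0.0548). The call of Myh3 was lost without 16 d replicate 2, 20 d replicate 2, 30 d replicate 1 or 40 d replicate 2 (adjusted p 0.0756 to 0.225). The call of Myl4 was kept only without 16 d replicate 1, 30 d replicate 2 or 40 d replicate 1 (adjusted p 0.0614 to 0.155 when any of the others was left out), and the call of Mybph was lost when any 1 of the 8 arrays was left out (adjusted p 0.0585 to 0.215). The count of genes of the list that fell was 0 without 16 d replicate 2, 30 d replicate 1 or 40 d replicate 2, 2 without either 20 d array, and 5 without 40 d replicate 1. For 30 d alone against 16 and 20 d it was 0, and for 40 d alone 4.

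Musk went the other way. It encodes the receptor kinase that clusters acetylcholine receptors at the neuromuscular junction, and read 61.8 and 43.8 on the 16 d arrays, 59.0 and 157 on the 20 d arrays, 218 and 256 on the 30 d arrays and 200.5 and 438 on the 40 d arrays. Apart from 20 d replicate 2, the values at 16 and 20 d were below the floor and were set to it. The size of the log2 difference therefore depends on the floor. Musk also entered the test only through the later arrays, where it was high. No later array lay as low as the highest earlier one (log2 difference 1.71, SE 0.37, limma adjusted p = 0.0163). The acetylcholine receptor subunits did not pass, among them Chrng of the fetal receptor (log2 difference -1.06, adjusted p = 0.168) and Chrne of the adult receptor (log2 difference 0.66, adjusted p = 0.573). The call of Musk was kept only without 16 d replicate 1, 20 d replicate 2 or 40 d replicate 1 (adjusted p 0.0515 to 0.121 when any of the others was left out).

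The adult myosin heavy chains did not pass. Myh4 read 5565, 36131, 35368 and 15561 at 16 and 20 d and 25627, 17779, 10943 and 31309 at 30 and 40 d (adjusted p = 0.961), and Myh1 read 24749, 33339.6, 32506 and 36707 at 16 and 20 d and 36823, 28206, 25566 and 23496 at 30 and 40 d (adjusted p = 0.904). Myh7, the slow isoform, read 16664, 15731, 35329.9 and 26598 at 16 and 20 d and 19339.8, 25432, 20980.0 and 29705 at 30 and 40 d (adjusted p = 0.982), and Myh2 read 108 or less on all 8 arrays. The direction of Myh1, Myh2, Myh4 and Myh7 changed with the setting. Of 22 fast contractile genes 1 fell (Mybph again), and of 13 slow contractile genes none was called, with 20 d above 16 d by a median of 1.01 on the log2 scale and none of the 13 called in that contrast.

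Most regulators of the muscle lineage did not pass. Myog, which drives differentiation of myoblasts, read 1412, 1403, 1565 and 1443 at 16 and 20 d and 1195, 859, 877 and 884 at 30 and 40 d (log2 difference -0.62, adjusted p = 0.275), and Myod1 read 1666, 1869, 1832 and 1622 at 16 and 20 d and 1924, 1906, 1804 and 2102 at 30 and 40 d (log2 difference 0.15, adjusted p = 0.782). Of 16 myogenic regulators tested, Cdkn1c was the 1 that fell. Snai2 did not pass (log2 difference -0.22, adjusted p = 0.619). Tead2, which encodes a DNA-binding partner of the growth regulator YAP, read 281 and 354 on the 16 d arrays, 459.9 and 269 on the 20 d arrays, 72.3 and 259 on the 30 d arrays and 89.9 and 114 on the 40 d arrays and fell (log2 difference -1.50, SE 0.34, limma adjusted p = 0.0208). The later arrays were all lower than the earlier ones, with 30 d replicate 2 closest to them. The call of Tead2 was lost without 16 d replicate 2, 20 d replicate 1 or 30 d replicate 1 (adjusted p 0.0941 to 0.191).

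Some of the imprinted genes, many of which act in fetal growth, fell. Of 16 tested, 3 fell and 0 rose (18.75% called, against 1.21% of all genes), and the median was -0.37. Below 0 were 14 of the 16 log2 differences, against 4044 of all 7674 genes. Igf2 encodes insulin-like growth factor 2, a fetal growth factor also made by regenerating fibres. Its intensity was 9248 and 13699 on the 16 d arrays, 10237 and 8774 on the 20 d arrays, 5815 and 7189 on the 30 d arrays and 5000.0 and 4316 on the 40 d arrays. The windows did not overlap, and Igf2 fell from 10489 ± 2225 to 5579.9 ± 1235 (mean and SD, n = 4 each) (log2 difference -0.91, SE 0.15, limma adjusted p = 0.000762). The untreated arrays read 3605 and 3327, below all 8. Igf2 was not called for 30 d alone against 16 and 20 d (limma adjusted p = 0.136). Cdkn1c, of the cell cycle inhibitor p57, read 2980.0 and 2858 on the 16 d arrays, 2751 and 2858 on the 20 d arrays, 2455 and 2336 on the 30 d arrays and 1350.4 and 1014 on the 40 d arrays and fell (log2 difference -0.77, SE 0.18, limma adjusted p = 0.0291), and both 40 d arrays lay at about the untreated values (1113 and 1350.0). Mest read 804, 969, 502 and 1102 at 16 and 20 d and 523, 541, 281 and 202 at 30 and 40 d, with 20 d replicate 1 inside the later range, and fell (log2 difference -1.19, SE 0.28, limma adjusted p = 0.0294). The call of Cdkn1c was kept only without 40 d replicate 1 (adjusted p 0.0625 to 0.161 when any of the others was left out). The call of Mest was kept only without 20 d replicate 1 or 40 d replicate 1 (adjusted p 0.0509 to 0.162 when any of the others was left out). Neither Cdkn1c nor Mest was called for 30 d alone against 16 and 20 d (limma adjusted p = 0.827 and 0.684). Both were called for 40 d alone (limma adjusted p = 0.00105 and 0.00378). The count for the list was 1 without 16 d replicate 1, 16 d replicate 2, 20 d replicate 2, either 30 d array or 40 d replicate 2, and 5 without 40 d replicate 1. For 30 d alone against 16 and 20 d it was 0, and for 40 d alone 4.

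Of 43 cell cycle genes tested, 3 fell and 0 rose (6.977% called, against 1.21% of all genes), with a median of -0.17. Stmn1 encodes stathmin, a microtubule-destabilising protein of dividing cells, and read 659.9, 550.3, 665 and 702 at 16 and 20 d and 361, 425, 449 and 126 at 30 and 40 d (log2 difference -1.07, SE 0.23, limma adjusted p = 0.0165). Prc1, which bundles microtubules in cytokinesis, read 205, 233, 122 and 112 at 16 and 20 d and 45.0, 98.1, 97.1 and 49.0 at 30 and 40 d (log2 difference -1.01, SE 0.21, limma adjusted p = 0.00962), and its later values straddled the floor. Cdc6, of replication licensing, read 265, 258, 224 and 244 at 16 and 20 d and 172, 219.5, 155 and 141 at 30 and 40 d (log2 difference -0.54, SE 0.12, limma adjusted p = 0.0236). Outside the list, Kif4, of a mitotic kinesin, read 96.7, 232, 214 and 148 at 16 and 20 d and 73.6, 68.6, 81.9 and 45.3 at 30 and 40 d (log2 difference -1.18, SE 0.26, limma adjusted p = 0.0202). In all 4 the windows were apart. The proliferation marker Mki67 did not pass (log2 difference -0.88, SE 0.23, limma adjusted p = 0.0519), nor did Top2a (log2 difference 0.28, adjusted p = 0.698). The call of Stmn1 was lost without 16 d replicate 1, 30 d replicate 1 or 40 d replicate 2 (adjusted p 0.0556 to 0.141). The call of Prc1 was lost without 16 d replicate 2, 30 d replicate 1 or 40 d replicate 2 (adjusted p 0.0511 to 0.0832). The call of Cdc6 was kept only without 20 d replicate 1, 30 d replicate 2 or 40 d replicate 1 (adjusted p 0.0591 to 0.153 when any of the others was left out), and the call of Kif4 was kept only without 16 d replicate 1, 20 d replicate 2 or 40 d replicate 1 (adjusted p 0.0653 to 0.176 when any of the others was left out). The count for the list was 1 without 16 d replicate 2, 2 without 20 d replicate 2, and 0 without 30 d replicate 1 or 40 d replicate 2. For 30 d alone against 16 and 20 d it was 0, and for 40 d alone 5.

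Among the other genes that fell, Clcn5 had the smallest p-value. It encodes an endosomal chloride-proton exchanger and read 461 and 454 on the 16 d arrays, 341 and 309 on the 20 d arrays, 203 and 224 on the 30 d arrays and 61.2 and 23.7 on the 40 d arrays. Both 40 d arrays were below the floor and every later array was below every earlier one (log2 difference -1.71, SE 0.15, limma adjusted p = 1.5e-08). It had been highest at 4 d (1866 ± 53.4, n = 2), the untreated arrays read 39.3 and 53.9, and its second, dimmer probe set did not pass (log2 difference -0.45, SE 0.42, limma adjusted p = 0.757). Kcne1l, of a potassium channel beta subunit, read 664 and 569 on the 16 d arrays, 943 and 992 on the 20 d arrays, 493 and 531 on the 30 d arrays and 131 and 64.3 on the 40 d arrays. Kcne1l fell in the main contrast (log2 difference -1.83, SE 0.34, limma adjusted p = 0.00404). Against 16 and 20 d its log2 difference was -0.592 for 30 d alone (limma adjusted p = 0.779) and -3.067 for 40 d alone (limma adjusted p = 4.1e-05).

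Ch25h, of cholesterol 25-hydroxylase, read 123, 172, 167 and 148 at 16 and 20 d and 24.3, 73.5, 77.0 and 80.3 at 30 and 40 d and fell (log2 difference -1.04, SE 0.26, limma adjusted p = 0.0387). Hk1, of the hexokinase that opens glycolysis in most tissues, read 1325, 1547, 1376 and 1259 at 16 and 20 d and 665, 1195, 609 and 671 at 30 and 40 d and fell (log2 difference -0.86, SE 0.22, limma adjusted p = 0.0429), the 1 gene called among 23 of glycolysis and glycogen. Isg15, of an interferon-induced ubiquitin-like protein, read 879.9, 1436, 657 and 889 at 16 and 20 d and 679, 626, 425 and 51.7 at 30 and 40 d (log2 difference -1.50, SE 0.35, limma adjusted p = 0.0289). Its windows overlapped and 40 d replicate 2 was by far the lowest array. The call of Ch25h was kept only without 16 d replicate 1 (adjusted p 0.0639 to 0.185 when any of the others was left out). The call of Hk1 was kept only without 30 d replicate 2 (adjusted p 0.0646 to 0.267 when any of the others was left out). The call of Isg15 was kept only without 16 d replicate 1, 20 d replicate 1 or 40 d replicate 1 (adjusted p 0.0841 to 0.247 when any of the others was left out). Of 31 class I and interferon response genes Isg15 was the 1 called (3.226%, against 1.21% of all genes). Below 0 were 30 of the 31 log2 differences, against 4044 of all 7674 genes, and the median was -0.21.

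**Figure D4:**
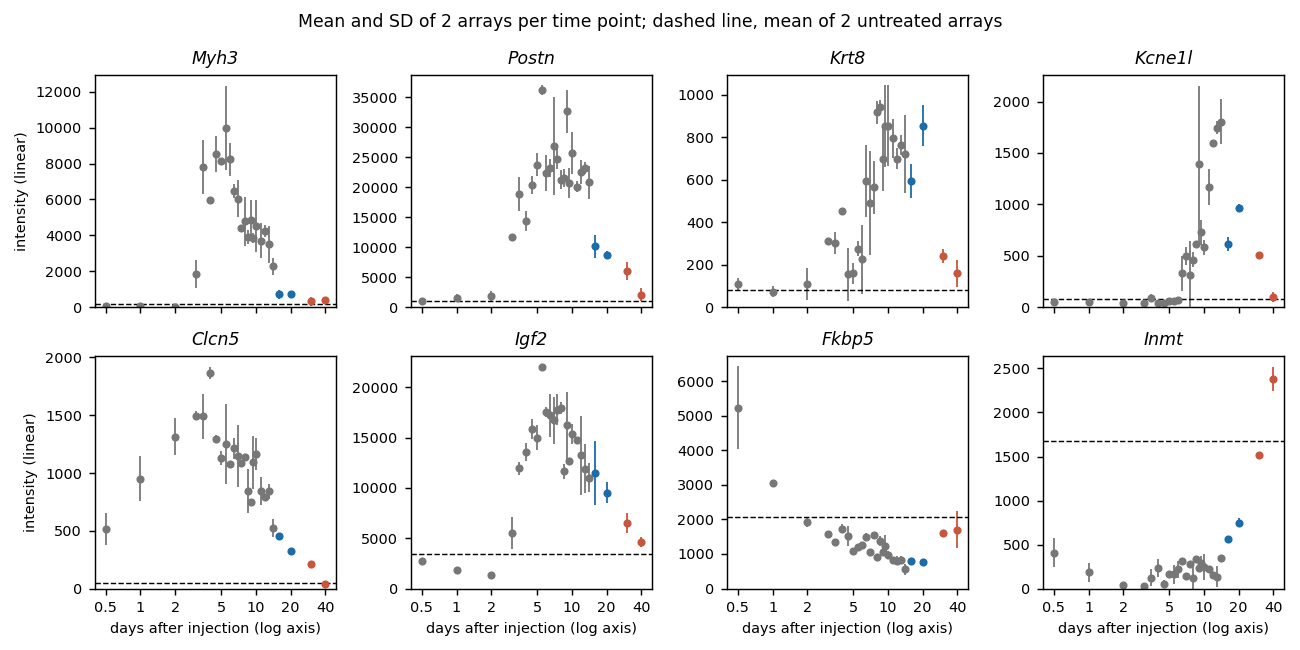
Each panel shows the mean intensity of 2 arrays (dots) and its SD (vertical lines) at each of the 26 time points after injection on a log time axis, with the mean of 2 untreated arrays as a dashed line; 16 and 20 d are blue, 30 and 40 d are red. Myh3 and Postn had lost most of their height before 16 d, Krt8 was still at 854 at 20 d, and Inmt was at its highest at 40 d.

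The genes that rose belonged to varied functions. Fkbp5 encodes an immunophilin that is induced by glucocorticoids and binds their receptor, and read 855 and 714 on the 16 d arrays, 716 and 813 on the 20 d arrays, 1659.6 and 1529.8 on the 30 d arrays and 1318 and 2083 on the 40 d arrays. The 2 windows were well apart, and Fkbp5 rose from 774 ± 70.7 to 1648 ± 323 (mean and SD, n = 4 each) (log2 difference 1.07, SE 0.15, limma adjusted p = 8.68e-05). The untreated arrays read 1527 and 2623. Cyp2f2, of a cytochrome P450 enzyme, read 629 and 709 on the 16 d arrays, 758 and 997 on the 20 d arrays, 1300.1 and 1521 on the 30 d arrays and 1324 and 1369 on the 40 d arrays. It rose without overlap (log2 difference 0.85, SE 0.14, limma adjusted p = 0.00125), and both untreated arrays (704 and 664) were within the range of the earlier window. Both genes were called in each of the 8 fits that left out 1 array.

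Gadd45g, of a stress-responsive growth arrest protein, read 719 and 1068 on the 16 d arrays, 854 and 964 on the 20 d arrays, 1941 and 1163 on the 30 d arrays and 2223 and 2924 on the 40 d arrays (log2 difference 1.13, SE 0.21, limma adjusted p = 0.00366). The windows were apart, although 30 d replicate 2 was only just above 16 d replicate 2, and the call of Gadd45g was lost without 30 d replicate 1 (adjusted p 0.0532). Cebpb, of a transcription factor of acute-phase and fat cell genes, read 1792, 1719, 2009 and 1884 at 16 and 20 d and 3198, 3028, 3174 and 3648 at 30 and 40 d (log2 difference 0.82, SE 0.19, limma adjusted p = 0.0265). These were the 2 of 35 stress and immediate early genes called (5.714%, against 1.21% of all genes), and the median of that list was 0.04. The call of Cebpb was kept only without 40 d replicate 1 (adjusted p 0.0543 to 0.12 when any of the others was left out). The count for the list was 0 without 30 d replicate 1 and 2 without 40 d replicate 1, and it was 1 without any of the others.

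Inmt encodes indolethylamine N-methyltransferase, and read 568 and 560.4 on the 16 d arrays, 715 and 785 on the 20 d arrays, 1543 and 1498 on the 30 d arrays and 2286 and 2478 on the 40 d arrays. It stood at or above 1498 on every later array and at or below 785 on every earlier one (log2 difference 1.55, SE 0.39, limma adjusted p = 0.0436). It was 1 of the 2 probe sets called in the 8 arrays alone, yet the call of Inmt was lost when any 1 of the 8 arrays was left out (adjusted p 0.0609 to 0.148). Gpx3, of the secreted glutathione peroxidase, read 5571, 4953, 5201 and 4056 at 16 and 20 d and 7358, 7038, 9482 and 10329.9 at 30 and 40 d (log2 difference 0.78, SE 0.19, limma adjusted p = 0.0367). Ces1d, of a carboxylesterase, read 100.0, 163, 122 and 186 at 16 and 20 d and 332, 244, 422 and 353 at 30 and 40 d (log2 difference 1.26, SE 0.30, limma adjusted p = 0.0316), with the untreated arrays higher still at 731 and 975. The windows of both were apart. The second, dimmer Ces1d probe set, near the floor on the 8 arrays and at 392 and 441 on the untreated ones, did not pass (log2 difference -0.03, SE 0.16, limma adjusted p = 0.973). The call of Gpx3 was kept only without 20 d replicate 1 or 40 d replicate 1 (adjusted p 0.0594 to 0.145 when any of the others was left out). The call of Ces1d was kept only without 16 d replicate 2 or 20 d replicate 2 (adjusted p 0.055 to 0.153 when any of the others was left out).

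Sorbs3, of the adhesion adaptor vinexin, read 89.2, 107, 97.1 and 99.5 at 16 and 20 d and 279, 130.1, 198 and 501 at 30 and 40 d (log2 difference 1.32, SE 0.25, limma adjusted p = 0.00496). Ercc4, of a DNA repair nuclease subunit, read 99.9, 47.6, 60.7 and 82.2 at 16 and 20 d and 265, 151, 129.7 and 159 at 30 and 40 d (log2 difference 1.15, SE 0.22, limma adjusted p = 0.00496), and its earlier values lay about the floor. Psme3, of a proteasome activator, read 828, 854, 778 and 454 at 16 and 20 d and 1188, 1276, 1773 and 1889.9 at 30 and 40 d (log2 difference 1.09, SE 0.24, limma adjusted p = 0.0177). The later arrays were higher without overlap in all 3. The call of Sorbs3 was lost without 30 d replicate 1 or 40 d replicate 2 (adjusted p 0.0677 to 0.0687). The call of Ercc4 was lost without 16 d replicate 2 or 30 d replicate 1 (adjusted p 0.0529 to 0.0653). The call of Psme3 was kept only without 16 d replicate 1, 20 d replicate 1 or 40 d replicate 1 (adjusted p 0.0552 to 0.0931 when any of the others was left out).

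Mllt1, of a transcription elongation complex, read 534, 470.4, 228 and 382 at 16 and 20 d and 933, 718, 902 and 669 at 30 and 40 d (log2 difference 1.05, SE 0.26, limma adjusted p = 0.0319). Ddit4, of an inhibitor of mTORC1 signalling, read 539, 618, 615 and 767 at 16 and 20 d and 1275, 1137, 1135 and 1273 at 30 and 40 d (log2 difference 0.93, SE 0.22, limma adjusted p = 0.0294). Mid1ip1, of a regulator of fatty acid synthesis, read 1962, 1923, 3125 and 3046 at 16 and 20 d and 4849, 5100.0, 4415 and 3777 at 30 and 40 d (log2 difference 0.88, SE 0.19, limma adjusted p = 0.0184). The windows of these 3 were apart. A second Mid1ip1 probe set overlapped between the windows and did not pass (log2 difference 0.63, SE 0.26, limma adjusted p = 0.292). The call of Mllt1 was kept only without 20 d replicate 2 (adjusted p 0.0555 to 0.153 when any of the others was left out). The call of Ddit4 was kept only without 20 d replicate 2 or 40 d replicate 1 (adjusted p 0.0667 to 0.126 when any of the others was left out). The call of Mid1ip1 was lost without 16 d replicate 2, 20 d replicate 2, 30 d replicate 1 or 30 d replicate 2 (adjusted p 0.0529 to 0.0664).

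Vegfd, of a lymphatic growth factor, read 309, 316, 237 and 128 at 16 and 20 d and 354, 363, 490.4 and 505 at 30 and 40 d (log2 difference 0.86, SE 0.20, limma adjusted p = 0.0225), with the windows apart. The call of Vegfd was kept only without 20 d replicate 1 or 40 d replicate 1 (adjusted p 0.0558 to 0.142 when any of the others was left out). Of 19 adipocyte genes Cebpa, of a transcription factor of fat cells, was the 1 called. It read 2478, 2828, 2164 and 1925 at 16 and 20 d and 3237, 3455, 4184 and 2653 at 30 and 40 d (log2 difference 0.52, SE 0.12, limma adjusted p = 0.029), and the windows overlapped. The median of the list was 0.22, and the fat cell hormone gene Adipoq did not pass (log2 difference 0.46, adjusted p = 0.404). The call of Cebpa was kept only without 20 d replicate 1 or 40 d replicate 2 (adjusted p 0.0529 to 0.129 when any of the others was left out). The summed intensity of the 19 genes was 49727 to 70786 at 16-20 d and 60574 to 65133 at 30-40 d. The part of fat cells in these values was not tested.

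Of 16 clock genes tested, Arntl (Bmal1, of the positive limb) fell and Per2 (of the negative limb) rose, and the median was 0.22. The share called was 12.5% of the list, against 1.21% of all genes. Arntl read 489 and 605 on the 16 d arrays, 283 and 304 on the 20 d arrays, 144 and 175 on the 30 d arrays and 293 and 360.2 on the 40 d arrays. It was lowest at 30 d, and 40 d replicate 1 and 40 d replicate 2 overlapped the 20 d arrays (log2 difference -0.81, SE 0.18, limma adjusted p = 0.0216). Per2 read 114, 111, 171 and 188 at 16 and 20 d and 234, 335, 260.3 and 181 at 30 and 40 d (log2 difference 0.80, SE 0.20, limma adjusted p = 0.046). Dbp, of a clock output factor, did not pass (log2 difference 0.45, SE 0.40, limma adjusted p = 0.737). The hour of collection is not given, so time of day and time after injection cannot be told apart for these genes. The call of Arntl was lost without 16 d replicate 2, 20 d replicate 2, 30 d replicate 1 or 40 d replicate 1 (adjusted p 0.0556 to 0.116). The call of Per2 was lost when any 1 of the 8 arrays was left out (adjusted p 0.0509 to 0.218).

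Lists that stayed without a call also belong to the description. Among 66 genes of the respiratory chain, ATP synthase and citric acid cycle none was called (median -0.17). Of their log2 differences 47 of 66 were below 0, against 4044 of all 7674 genes. Nor was any of 27 proteasome and atrophy ligase genes called (22 below 0, median -0.19), or any of 19 ribosome genes (16 below 0, median -0.29). None of 37 monocyte and macrophage genes was called (median -0.09), and Cd68, of a macrophage lysosomal protein, read 1314, 1632, 1495 and 1203 at 16 and 20 d and 1504, 1813, 1784 and 1733 at 30 and 40 d (adjusted p = 0.585), all above the untreated 877 and 538. None of 14 class II antigen presentation genes (median -0.22), 24 endothelial genes (median -0.02), 18 T and natural killer cell genes (median -0.26) or 14 nerve and Schwann cell genes (median 0.04) was called.

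Within the later window, 53 probe sets differed between 40 d and 30 d (0.479% of 11072), of which 24 were higher (0.217%) and 29 lower (0.262%) at 40 d. By gene 31 were called (0.404%), of which 25 were lower (0.326% of 7674) and 6 higher (0.0782%) at 40 d. The 5 largest falls were those of Smoc1, Kcne1l, Slfn2, Lst1 and Tmem45a. Smoc1, of a calcium-binding matricellular protein, read 500.4 and 634 at 30 d and 95.8 and 101 at 40 d (log2 difference -2.51, SE 0.57, limma adjusted p = 0.0321). Kcne1l read 493 and 531 at 30 d and 131 and 64.3 at 40 d (log2 difference -2.48, SE 0.48, limma adjusted p = 0.00803). Tmem45a, of a transmembrane protein, read 540.1 and 433 at 30 d and 169 and 48.1 at 40 d (log2 difference -2.21, SE 0.37, limma adjusted p = 0.0019). Lst1, of a leukocyte transcript, dropped from 633 and 651 to 146 and 116 (log2 difference -2.30, SE 0.38, limma adjusted p = 0.00179), and Slfn2, of a regulator of lymphoid and myeloid quiescence, from 506 and 549 to 157 and 59.8 (log2 difference -2.39, SE 0.52, limma adjusted p = 0.0262). A second Slfn2 probe set read 271 and 207 at 30 d and 330.1 and 239 at 40 d and did not pass (log2 difference 0.25, adjusted p = 0.905).

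Matrix genes were among those that fell from 30 to 40 d. Of 27 collagen and basement membrane genes, 3 fell and 0 rose (11.11% called, against 0.404% of all genes). Below 0 were 26 of the 27 log2 differences, against 3555 of all 7674 genes. The median was -0.56 against 0.02 over all genes tested. The 3 were Lamc1, of a laminin chain (log2 difference -1.33, adjusted p = 0.00429), Col5a2 (log2 difference -1.24, SE 0.22, limma adjusted p = 0.00394) and Col6a3 (log2 difference -0.83, SE 0.16, limma adjusted p = 0.00735). Postn fell again (log2 difference -1.61, SE 0.31, limma adjusted p = 0.00735), as did Clcn5 (log2 difference -1.72, SE 0.21, limma adjusted p = 1.21e-05). The count of called probe sets was 27 and 23 without 30 d replicate 1 and 30 d replicate 2, 258 without 40 d replicate 1 and 30 without 40 d replicate 2.

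The 5 largest rises from 30 to 40 d by the naming rule were of dim probe sets, for Vmn2r10, Foxn2, Cdh10, Hoxd1 and Tbr1, whose highest value at 40 d was 412. For Hoxd1 and Tbr1, of developmental transcription factors, and for Cdh10 and Vmn2r10 both 30 d arrays were below the floor and were set to it. The size of their differences therefore depends on the floor. Of the arrays compared, Tbr1 was above the floor on those of 40 d alone and entered the test only through them. Hoxd1 was above it on both 40 d arrays and on 16 d replicate 1 (78.4), so it would not have entered without the 40 d arrays. The largest rise of any probe set was of an immunoglobulin heavy chain gene, Ighm, chosen after its values were seen. That probe set read 23.0 and 28.8 on the 16 d arrays, 46.9 and 38.3 on the 20 d arrays, 50.8 and 23.7 on the 30 d arrays and 3340.1 and 507 on the 40 d arrays (log2 difference 4.33, SE 0.37, limma adjusted p = 1.46e-08). Its values on the 16, 20 and 30 d arrays were all below the floor and were set to it. It therefore entered the test only through the 40 d arrays, where it was high. The size of its log2 difference depends on the floor, and the 30 d arrays had no spread once set to it. The value on 40 d replicate 1 was well above that on 40 d replicate 2. Another Ighm probe set read 637, 499, 901 and 1049 at 16 and 20 d and 1732, 1553, 2333 and 2716 at 30 and 40 d and rose in the main contrast (log2 difference 1.46, SE 0.25, limma adjusted p = 0.00125). The brightest Ighm probe set read 2646, 2621, 2393 and 2669 at 16 and 20 d and 4288, 3747, 4569 and 6016 at 30 and 40 d and did not pass (log2 difference 0.83, SE 0.22, limma adjusted p = 0.0602), although its windows were apart. Of the 13 B and plasma cell genes represented by their brightest probe set, none was called (median 0.08), and their summed intensity was 5380.3 to 6388 at 16-20 d and 6978 to 9499 at 30-40 d.

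Within the earlier window, 16 probe sets differed between 20 d and 16 d (0.145%), of which 7 were higher (0.0632%) and 9 lower (0.0813%) at 20 d. By gene 8 were called (0.104%), of which 5 were lower (0.0652%) and 3 higher (0.0391%). The 5 that fell were Lipa, Kcnab2, Abcd4, Gpr3 and Clock, and the second probe set of Kcnab2 did not pass (log2 difference 0.013, adjusted p = 1). Lipa, of the lysosomal acid lipase, read 399 and 437 at 16 d and 95.1 and 233 at 20 d (log2 difference -1.49, SE 0.28, limma adjusted p = 0.0168), and Clock, of the clock factor that pairs with Arntl, read 431 and 462 at 16 d and 192 and 288 at 20 d (log2 difference -0.93, SE 0.19, limma adjusted p = 0.026). The 3 that rose were Slc5a1, Mt1 and Acr. Of the 8 arrays, Slc5a1 was above the floor on those of 20 d alone and entered the test only through them. Mt1, of the metal-binding metallothionein 1, read 1572 and 1686 at 16 d and 3579 and 3022 at 20 d (log2 difference 1.01, SE 0.21, limma adjusted p = 0.0297). The count was 42 without 16 d replicate 1, 37 without 20 d replicate 1 and 50 without 20 d replicate 2.

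Set beside the 2 untreated arrays, which entered no test, called probe sets ended near the untreated level in some cases and not in others. Of the 85 that fell, the untreated mean was closer to the 30-40 d mean for 62 (72.94%), and it lay beyond the 30-40 d mean, on the side away from 16-20 d, for 48. Of the 46 that rose, it was closer to the later mean for 25 (54.35%) and beyond it for 9. Over all 11072 probe sets tested it was closer to the later mean for 50.97%. On the means of 2 arrays, Igf2, Postn and Krt8 were lower in untreated muscle than at 40 d and Nid2 was higher, and Cyp2f2 was higher at both 30 and 40 d than in untreated muscle.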

How the data were processed

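The authors' deposited values are intensity values per probe set on a linear scale. The unit was read from their range. Software and normalization are not given in the sources at hand. Their trimmed mean was 800.414 to 800.542 on all 54 Av2 arrays and none was below 0, so they were used as deposited. Values under a floor of 64.7 (median over arrays of the 20th percentile) were set to it and put on the log2 scale, which understates changes of dim probe sets. Of 12488 probe sets, 66 controls were left out and 11072 were tested, above the floor on at least 2 of the 8 arrays. limma 3.58.1 in R 4.3.3 was fitted to 52 arrays with 1 mean per time point, leaving 26 residual degrees of freedom. The contrast was the mean of 30 and 40 d minus the mean of 16 and 20 d, with Benjamini-Hochberg adjustment over all probe sets tested. Symbols came from GEO's platform annotation (10833 probe sets with 1 symbol, 396 with several, 1193 with none), and each gene was represented by its brightest probe set. The number of arrays limits the precision.

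Named genes were the 15 largest called rises and falls without overlap, the 5 largest of each direction in each contrast within a window, up to 4 called genes per list, and a fixed set always named, of which H19 was not named on the array. The groups, the gene lists and the naming rule were chosen with earlier results of these data known. Promoter windows were taken from RefSeq. The fits were tested on simulated data. Arrays of the earlier version were not used here.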

Additional observations from a re-analysis of the deposited data

Results flagged for a closer look

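Each window of 4 arrays was examined for 1 array far from the other 3 (a gap past Dixon's critical value), over 59 named genes and 118 groups, of which chance marks about 1 in 20. The 7 marked values were as follows. Ch25h stood at 24.3 on 30 d replicate 1 against 73.5 to 80.3 on the other 3 arrays of 30-40 d, below the floor. Dbp was lowest on 40 d replicate 2 at 1409, against 2001 to 2046. Hk1 was highest on 30 d replicate 2 at 1195, against 609 to 671. Musk was highest of the earlier arrays on 20 d replicate 2 at 157, against 43.8 to 61.8. Mybph was highest on 30 d replicate 1 at 4087, against 2001 to 2310.2. Myl4 was highest on 30 d replicate 2 at 923, against 616 to 666. Myog was highest on 30 d replicate 1 at 1195, against 859 to 884.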

How the results depend on the processing

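All 45 named genes called in the main contrast kept their direction under each alternative that gave them a value. The filter of all 8 arrays above the floor left 37 of the 45, all called and of the same direction. Of the 45, 43 stayed called under quantile normalization, 39 under median scaling, 37 with 0.5 times the floor, 23 against 16 d alone, 18 against 20 d alone, 6 for 30 d alone, 34 for 40 d alone and 2 in the 8 arrays alone. With 1 array left out, 14 to 36 stayed called. Without the 3 arrays whose title codes carry an added character, 22 of the 45 stayed called. That fit called 156 probe sets, of which 59 were among the 131 of the main fit. The limits are the 2 arrays per time point and dim probe sets, for which the floor sets the difference.

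Against 131 probe sets called (46 higher, 85 lower) and 30 list members, leaving out 1 array gave 47 to 232 (14 to 76 higher, 31 to 156 lower) and 8 to 41 list members. The 8 arrays alone gave 2 (1 and 1; 1121 at an unadjusted p under 0.05) and 0 list members. With 1 mean per window in the 8 arrays limma gave 0 (0 and 0; 959 unadjusted) and 0 list members, and a required 2-fold change gave 0 (0 and 0; 13 unadjusted) and 0 list members. With 20 d alone as the earlier window there were 79 (44 lower) and 12 list members. 30 d alone gave 21 (11 higher, 10 lower) and 2 list members, and 40 d alone gave 237 (89 higher, 148 lower). Doubling the floor gave 71 higher. Of the alternatives chosen after seeing the data, leaving the 12 h arrays out of the fit gave 234 (91 higher, 143 lower), only arrays of 10 d and later gave 77 (29 higher, 48 lower) and 19 list members, and leaving out the 5 arrays low in the Gapdh ratio gave 361 (129 higher, 232 lower) and 52 list members. That last fit sets 40 d replicate 2 alone, assumed to vary like other arrays, against 16 d replicate 2 and 20 d replicate 1, so its count is not of the same comparison. The cause of these shifts was not tested, apart from the fewer arrays in some fits.

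Replicate numbers did not pair the arrays: deviations of same-numbered arrays correlated at -0.0999 to 0.0468 over 6 comparisons. The replicate block in the 8 arrays gave 0 calls by limma in the main contrast (0 higher, 0 lower, 0 list members; 1041 unadjusted), 0 for 40 d against 30 d and 0 for 20 d against 16 d.

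For 40 d against 30 d (53), 1 array left out gave 23 to 258, requiring all 8 arrays above the floor 13, the 8 arrays alone 0, no 12 h arrays 92 and 10 d and later 32. For 20 d against 16 d (16), 1 array left out gave 12 to 50, all 8 above the floor 8, variance trend with robust moderation 10, the 8 arrays alone 0 and 10 d and later 7.

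Genes without a call changed sign as follows on the log2 scale. Myh1 went to 0.12 under quantile normalization and 0.033 for 30 d alone. Myh2 went to 0.087 with 0.5 times the floor, 0.16 against 16 d alone and 0.14 for 40 d alone, and ran from -0.21 to 0.16 with 1 array left out. Myh4 went to -0.24 against 20 d alone and -0.19 without the 5 arrays, and ran from -0.55 to 0.80 with 1 array left out. Myh7 went to -0.38 against 20 d alone and -0.0065 for 30 d alone, and ran from -0.047 to 0.20 with 1 array left out. Snai2 went to 0.12 without the 5 arrays.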
